A study of Mus musculus with 160 samples.

Results

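Globin and erythroid genes were followed across 8 sorted populations of the mouse aorta-gonads-mesonephros region, the AGM. The group held 9 of the 46078 genes in the count table, taken by Ensembl identifier. They were the alpha-like globins Hba-x, Hba-a1 and Hba-a2, the beta-like globins Hbb-bh1, Hbb-y, Hbb-bt and Hbb-bs, the erythroid transcription factor Klf1, and Alas2, the erythroid enzyme that starts haem synthesis. All 9 were found in the table.

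Each library was a pool of 20 FACS-sorted cells. All embryos were Gata3-GFP +/-, so every population carried 1 Gata3 allele in which GFP reports the gene, and no population without the reporter was compared here. Endothelial cells (EC: Cdh5+, CD41-, CD45-) and haematopoietic cells (HC: CD41+, CD45+ by the labels, either antigen by the methods) came from E10.5 embryos, whereas mesenchymal cells (MC: Pdgfrb+) and cells of the sympathetic nervous system (SNS: Ngfr+) came from E11.5. Each type was split into Gata3-GFP+ and Gata3-GFP- fractions. Of 160 pools, 7 failed the quality limits. Those kept were 19 Gata3-GFP+ and 20 Gata3-GFP- EC pools, 20 and 20 HC pools, 20 and 17 MC pools, and 18 and 19 SNS pools. Passing pools held from 1400824 to 16004756 counts on genes. By the methods, the E10.5 cells came from 3 to 5 biological replicates, each a pool of several embryos, and were sorted into 20 pools per population. The 19 or 20 pools of a group therefore share those few replicates, and which pool came from which was not given. No pool was tied to an embryo, so p-values take pools as n, measure the spread between pools, which may be technical, and can be too small. Stage and cell type cannot be told apart between MC or SNS and the E10.5 populations. A red cell exclusion in the sort was not stated.

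Markers mostly followed the labels. The endothelial markers summed to medians of 4076 and 2972 CPM (counts scaled to an equal library size) in Gata3-GFP+ and Gata3-GFP- EC, against 114.2 and 47.9 in the HC fractions. In MC and SNS, 12 of 74 pools went against their label, 3 in each of the 4 populations: sympathetic markers exceeded mesenchymal ones in 6 MC pools and the reverse held in 6 SNS pools. Results on MC and SNS are therefore also given without them.

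Haemoglobin joins alpha-like to beta-like chains around haem. In the mouse embryo, primitive red cells from the yolk sac use the embryonic chains zeta (Hba-x), beta-h1 (Hbb-bh1) and epsilon-y (Hbb-y), though not these alone. Later definitive red cells use mainly the adult chains, so counts of an adult gene do not by themselves assign a pool to either kind. Primitive red cells circulate through the AGM at the stages sampled, while the first haematopoietic stem cells form at the wall of the aorta. KLF1 is known to bind CACCC-type motifs and to activate many red cell genes, the adult beta-globin genes among them.

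On mm10 the alpha-like genes lie on the plus strand of chromosome 11, with Hba-x (ENSMUSG00000055609) at chr11:32276400-32278116, Hba-a1 (ENSMUSG00000069919) at chr11:32283511-32284465 and Hba-a2 (ENSMUSG00000069917) at chr11:32296489-32297298. The beta-like genes lie on the minus strand of chromosome 7, with Hbb-bt (ENSMUSG00000073940) at chr7:103812524-103813996, Hbb-bs (ENSMUSG00000052305) at chr7:103826534-103828096, Hbb-bh1 (ENSMUSG00000052217) at chr7:103841637-103843164 and Hbb-y (ENSMUSG00000052187) at chr7:103851749-103853216. Klf1 (ENSMUSG00000054191) lies at chr8:84901928-84905291 and Alas2 (ENSMUSG00000025270) at chrX:150547375-150570638, both on the plus strand. All values are counts over each gene's exons.

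The sequences decide how far reads can be assigned to 1 globin, so the first 90 coding bases of the beta-like members are shown here (RefSeq, GRCm38.p6), with capitals marking bases that differ from Hbb-bt.
Hbb-bt: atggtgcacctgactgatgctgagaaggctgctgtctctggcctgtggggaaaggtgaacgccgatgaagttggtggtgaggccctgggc
Hbb-bs: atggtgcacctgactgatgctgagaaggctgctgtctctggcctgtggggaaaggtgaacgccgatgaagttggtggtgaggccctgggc
Hbb-bh1: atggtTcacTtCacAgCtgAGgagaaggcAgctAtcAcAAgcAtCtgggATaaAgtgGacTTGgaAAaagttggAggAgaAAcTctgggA
Hbb-y: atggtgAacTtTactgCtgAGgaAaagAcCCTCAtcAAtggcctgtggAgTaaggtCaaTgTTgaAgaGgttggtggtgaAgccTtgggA
Hbb-bs differed from Hbb-bt at 0 of these bases, Hbb-bh1 at 29 and Hbb-y at 26. Over the whole coding sequence, Hbb-bt and Hbb-bs differed at 1 of 444 bases and Hba-a1 and Hba-a2 at 1 of 429. Of the windows of 1 read length in the transcript, 52.8% of those of Hbb-bt and 60.7% of those of Hbb-bs also occurred in the partner. The same held for 50.6% of Hba-a1 windows and 67.7% of Hba-a2 windows. Hba-x, Hbb-bh1, Hbb-y and Klf1 shared 0 windows with another gene. Counts of the adult globins can therefore miss or misplace reads of their partner, whereas embryonic globin counts cannot in this way. Alas2 shared 9.83% of its windows with Apex2, which overlaps it on the opposite strand, and the strand setting of the counting was not stated.

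Globin transcripts were rare in all populations. The pool with the most held 0.1501% of its counts on genes in the 7 globins. Summed over the 7 globins, Gata3-GFP+ HC pools ran from 1.86 to 206 CPM, with a median of 63.3. Gata3-GFP- HC pools ran from 1.26 to 1595 CPM with a median of 15.5. Gata3-GFP+ EC pools ran from 1.73 to 123.9 CPM (median 19.7) and Gata3-GFP- EC pools from 1.23 to 43.8 CPM (median 6.34). All 4 E10.5 populations therefore overlapped, and none of their 79 pools was at 0. At least 1 globin reached 10 counts in 18 of 20 Gata3-GFP+ HC, 14 of 20 Gata3-GFP- HC, 16 of 19 Gata3-GFP+ EC and 12 of 20 Gata3-GFP- EC pools. In pools, fewer cells of a type and less RNA per cell cannot be told apart.

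**Figure D1:**
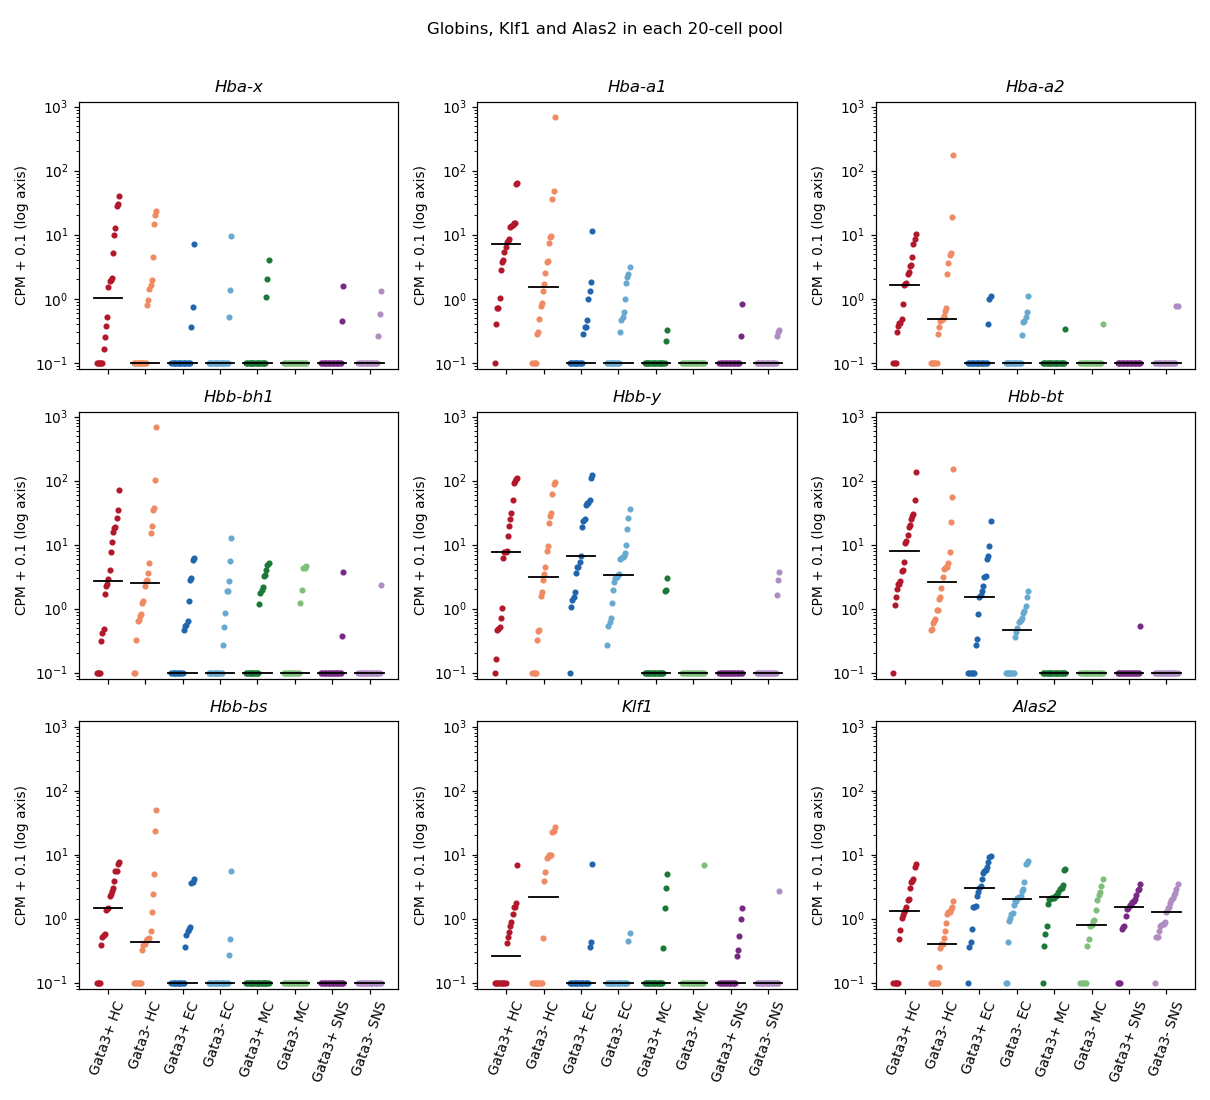
CPM of each of the 9 genes in every passing pool, by population. The vertical axis is logarithmic with 0.1 added to each CPM, each point is 1 pool of 20 cells, and bars mark medians. Hbb-y sat at similar heights in EC and HC pools, whereas the other globins were mostly higher in HC pools.

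Among the embryonic genes, Hbb-y reached 10 counts in the most EC pools. Its CPM ran from 0 to 111.1 in Gata3-GFP+ HC pools (median 7.70) and from 0 to 93.3 in Gata3-GFP- HC pools (median 3.08). In Gata3-GFP+ EC pools it ran from 0 to 123.9 (median 6.43), and in Gata3-GFP- EC pools from 0.175 to 35.9 (median 3.27). The medians of EC pools thus lay within the range of the HC pools. Hbb-bh1 had medians of 2.56 and 2.39 CPM in Gata3-GFP+ and Gata3-GFP- HC pools, with maxima of 70.4 and 679, and a median of 0 in both EC populations. Hba-x, the embryonic alpha-like chain, had a median of 0.921 CPM in Gata3-GFP+ HC pools and 0 in the other 3 populations of E10.5, and its highest pool was Gata3-GFP+ HC at 40.5 CPM.

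Of the adult genes, Hba-a1 ran from 0 to 64.1 CPM (median 6.96) in Gata3-GFP+ HC and from 0 to 689 (median 1.41) in Gata3-GFP- HC pools. Hbb-bt ran from 0 to 135.6 (median 7.90) and from 0.360 to 150 (median 2.52) in the same populations. Hba-a2 and Hbb-bs, their near-identical partners, had medians of 1.56 and 1.34 CPM in Gata3-GFP+ HC and 0.377 and 0.326 in Gata3-GFP- HC pools. In EC pools, the adult gene seen most was Hbb-bt, which reached 10 counts in 6 of 19 pools of the Gata3-GFP+ fraction and in 0 of 20 of the Gata3-GFP- fraction. Per kilobase of exon, the median levels in Gata3-GFP+ HC pools were 12.2 CPM for Hbb-y, 11.2 for Hbb-bt, 8.57 for Hba-a1, 4.18 for Hbb-bh1 and 0.982 for Hba-x. The first 3 of these overlapped widely from pool to pool, and their order was not tested.

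The population medians of Klf1 and of Alas2 did not rank as those of the summed globins did, though Klf1, like most globins, was higher in HC than in EC. Klf1 ran from 0 to 6.84 CPM in Gata3-GFP+ HC (median 0.157) and from 0 to 26.6 in Gata3-GFP- HC pools (median 2.05), and it was at 0 in 16 of the 19 EC pools that were Gata3-GFP+ and 18 of the 20 that were Gata3-GFP-. Alas2 had its highest medians in Gata3-GFP+ EC pools (2.90 CPM) and Gata3-GFP+ MC pools (2.08 CPM), with 1.204 in Gata3-GFP+ HC and 0.299 in Gata3-GFP- HC pools. It was thus lowest in a haematopoietic population, and all 8 populations overlapped.

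A few pools carried much of the globin signal. In Gata3-GFP- HC, 34.7% of globin counts came from 1 pool and 74.3% from the 3 pools with the most globin counts. By CPM, the highest pool, at 1595, held 1755 counts of Hba-a1, 1730 of Hbb-bh1, 441 of Hba-a2, 60 of Hba-x, 56 of Hbb-y and 19 of Hbb-bt, with 1 count of Klf1. The next, at 325 CPM, held 1522 counts of Hbb-bt, 884 of Hbb-y, 505 of Hbb-bs and 374 of Hbb-bh1, with 97 of Klf1 but only 2 of Hba-a1 and 0 of Hba-x and Hba-a2. Its counts were thus almost all beta-like. The next by CPM, at 219, held 476 counts of Hbb-y, 247 of Hba-a1 and 176 of Hbb-bh1. The globins did not keep 1 ratio between these pools.

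**Figure D2:**
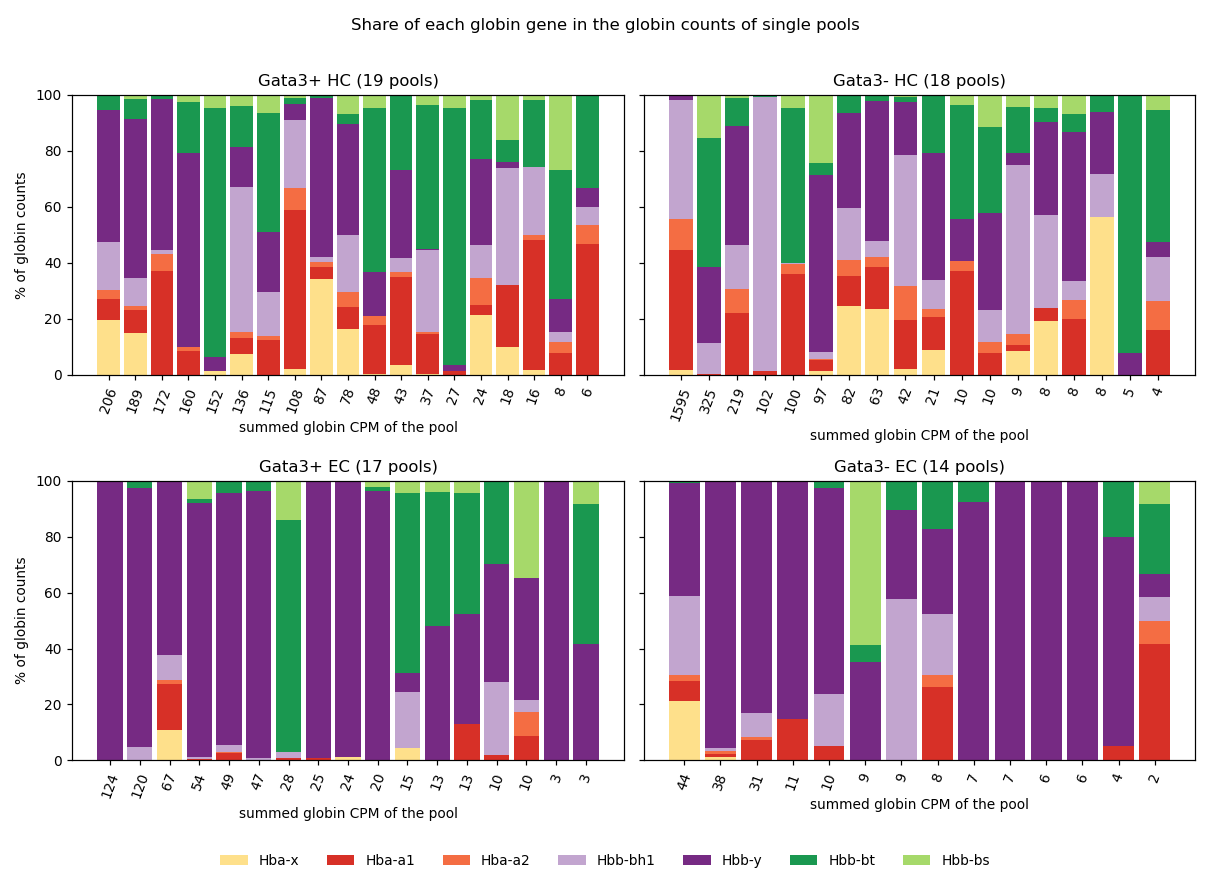
Percent of globin counts taken by each of the 7 globins in each pool with at least 10 globin counts, for the 4 E10.5 populations. Each column is 1 pool, ordered by summed globin CPM within its population. Hbb-y filled most columns in EC and a smaller part in HC, where the mix changed from pool to pool.

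Embryonic and adult globins were set against each other within each pool. Among pools with at least 10 beta-like counts, the embryonic share (Hbb-bh1 and Hbb-y of all beta-like counts) ran from 2.3% to 97.98% in 18 Gata3-GFP+ HC pools, with a median of 64.7%. In 18 Gata3-GFP- HC pools it ran from 0.4% to 99.4% with a median of 78.7%. It exceeded 50% in 11 and 13 of these pools, so both embryonic-rich and adult-rich pools occurred in each HC population. In EC, the share ran from 1.9% to 100% in 17 Gata3-GFP+ pools (median 95.5%) and from 35.3% to 100% in 13 Gata3-GFP- pools (median 98.9%). These shares rest on as few as 10 counts, and counting error and the missing molecular identifiers apply to each.

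By the medians, the embryonic share in HC was lower for alpha-like than for beta-like globins. The share of Hba-x in alpha-like counts ran from 0% to 85.1% in 15 Gata3-GFP+ HC pools with a median of 9.1%, and from 0% to 100% in 10 Gata3-GFP- HC pools with a median of 15.7%. Only 1 pool of each EC population had 10 alpha-like counts, with shares of 37.1% in Gata3-GFP+ and 70% in Gata3-GFP- EC. Among pools with at least 100 alpha-like counts, the median was 2.8% in 3 Gata3-GFP+ and 2.7% in 5 Gata3-GFP- HC pools. Reads shared by the adult pairs bear on both shares. Counted per window of 1 read length found in no other gene, the beta-like medians were 47.002%, 64.3%, 91.9% and 98.003% in Gata3-GFP+ HC, Gata3-GFP- HC, Gata3-GFP+ EC and Gata3-GFP- EC, and the alpha-like medians in the HC populations were 3.83% and 6.76%.

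**Figure D3:**
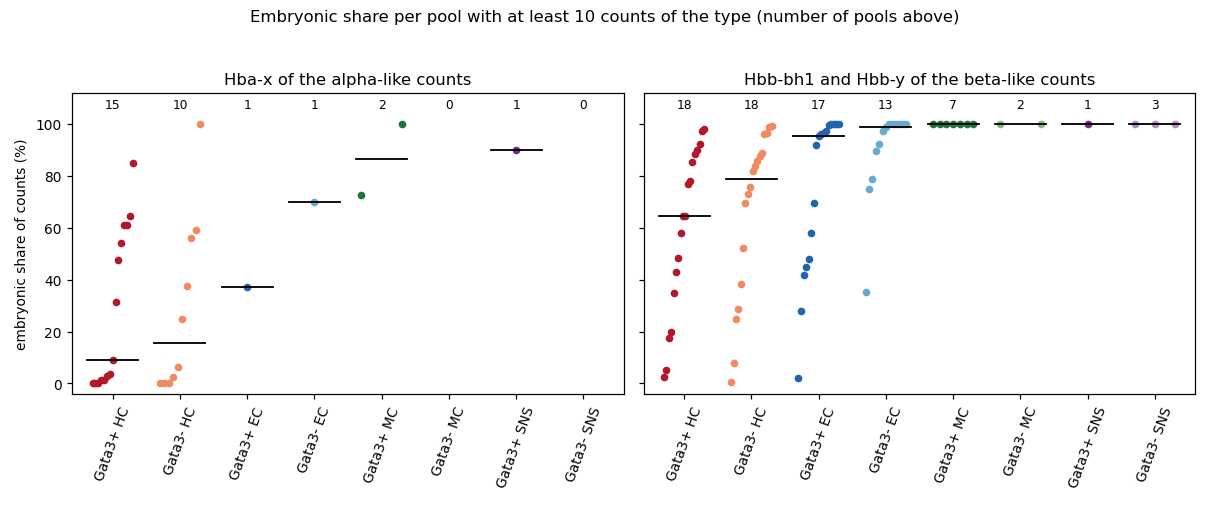
Embryonic share, in percent, of beta-like and of alpha-like globin counts in each pool with at least 10 counts of that type. Each point is 1 pool, bars mark medians and the numbers above give the pools per population. Beta-like shares in EC crowded near 100%, whereas those in HC spread over nearly the whole range.

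Summed over the pools of a population, Hbb-y made up 80.8% of globin counts in Gata3-GFP+ EC and 67.5% in Gata3-GFP- EC. The summed share was 29.5% in Gata3-GFP+ HC and 17.8% in Gata3-GFP- HC. Among pools with at least 10 globin counts, the median share was 15.6% in Gata3-GFP+ HC and 24.4% in Gata3-GFP- HC. The order of the HC fractions was thus reversed. By that median Hbb-y was still higher in both EC populations, the lower at 79.1% in Gata3-GFP- EC. It was the sole globin with 10 counts in 8 of the 13 Gata3-GFP+ EC pools and 9 of the 10 Gata3-GFP- EC pools in which it reached that count. In HC it was the sole globin in 0 of 13 and 0 of 8 such pools. The Gata3-GFP+ EC pool at 123.9 CPM held 507 counts of Hbb-y and 0 of the other 6 globins and of Klf1. Another EC pool, at 67.1 CPM, held 67 of Hba-a1, 43 of Hba-x and 36 of Hbb-bh1, so mixed globin pools also occurred in EC.

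Markers of blood cells were lower in EC than in HC pools by their medians, but not absent. The 8 macrophage markers summed to medians of 43.6 and 50.3 CPM in Gata3-GFP+ and Gata3-GFP- EC, against 4326 and 5193 in HC. The 7 megakaryocyte and platelet markers summed to 48.8 and 71.7 CPM in EC, against 9912 and 597 in HC. These EC medians lay above the summed globin medians given above, and Pf4 and C1qb reached 10 counts in all 39 EC pools. Itga2b and Ptprc, which encode the sort antigens CD41 and CD45, summed to medians of 5.65 CPM in Gata3-GFP+ EC and 9.26 in Gata3-GFP- EC, against 447 and 445 in the HC populations. The 8 erythroid markers measured summed to 1.15 to 31.9 CPM (median 9.82) in Gata3-GFP+ EC and 0 to 8.94 (median 1.87) in Gata3-GFP- EC pools. They summed to 20.5 to 718 CPM (median 135.7) in Gata3-GFP+ HC and 3.88 to 120.9 (median 25.03) in Gata3-GFP- HC pools. The red cell surface and skeleton genes Slc4a1, Rhag and Epb42, and Hemgn, were at a median of 0 in both EC populations, and Gata1 reached 10 counts in 0 of 39 EC pools. Even in HC the anion exchanger Slc4a1 and Rhag were at a median of 0. The part of red cells, other blood cells or their RNA in the EC globin counts was not tested.

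The comparison of HC with EC at E10.5 asked which globin and erythroid genes differed between blood and endothelium. All 9 were tested, with 7 called higher and 1 lower in HC, where 25.5% and 24.8% of 17851 genes were called higher and lower. A gene was called when its edgeR p, from the quasi-likelihood F test and adjusted by Benjamini-Hochberg, was under 0.01 and its log2 fold change passed 0.1 in size. Hba-x, Hba-a1, Hba-a2, Hbb-bs and Klf1 reached 10 counts in under 5 EC pools, so they entered the test through the HC pools. Their differences are given as a description, with no p.

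Among the members with 10 counts in at least 5 EC pools, the embryonic Hbb-bh1 was higher in HC by 4.10 ± 0.65 (log2 fold change ± SE, edgeR adjusted p = 7.44e-08) and the adult Hbb-bt by 3.65 ± 0.54. Of those that entered through HC, the adult alpha genes Hba-a2 and Hba-a1 had 4.85 ± 0.65 and 4.75 ± 0.66, Klf1 3.63 ± 0.65, the embryonic Hba-x 3.04 ± 0.70 and the adult Hbb-bs 2.75 ± 0.63. Embryonic and adult genes were thus interleaved in size. Hbb-y had a difference of 0.66 ± 0.51 (edgeR adjusted p = 0.269) and was not called. Alas2 fell by 1.58 ± 0.40 on the log2 scale (edgeR adjusted p = 0.000369), but with ERCC spike-in size factors the value was -1.05 and the adjusted p 0.0202, which misses the threshold. That scaling moved the median over all genes from 0.02 to 0.43.

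**Figure D4:**
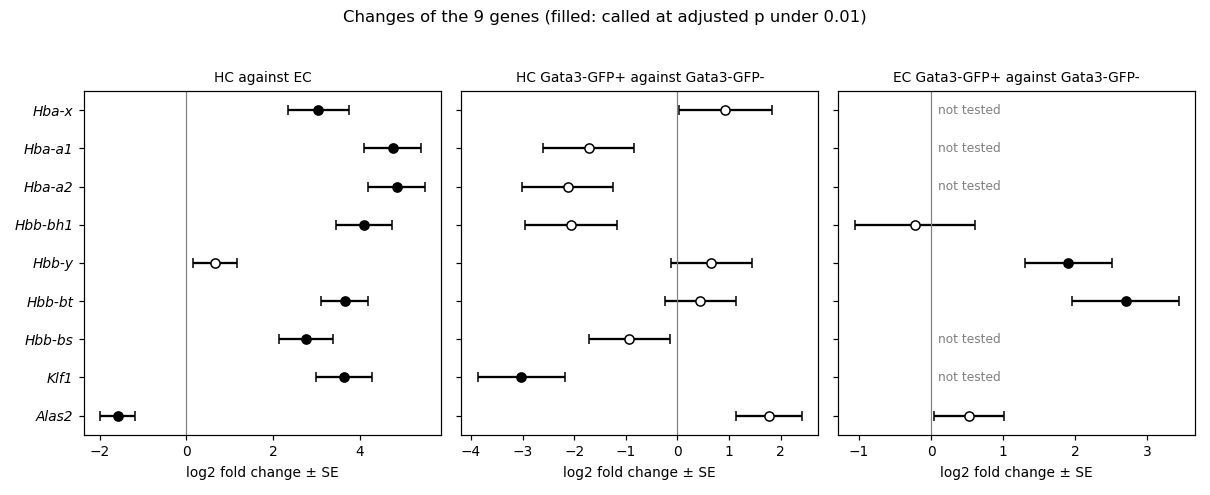
Log2 fold changes with SE of the 9 genes in 3 comparisons by edgeR: HC against EC, and Gata3-GFP+ against Gata3-GFP- within HC and within EC. Filled points passed the threshold and open points did not. HC against EC had 8 filled points, HC had 1 (Klf1, lower) and EC had 2 (Hbb-y and Hbb-bt, higher). Of the filled points in HC against EC, Hba-x, Hba-a1, Hba-a2, Hbb-bs and Klf1 entered the test through the HC pools. Klf1 within HC and Hbb-bt within EC entered through the fraction where each was high.

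Between Gata3-GFP+ and Gata3-GFP- HC pools, Klf1 alone of the 9 passed the threshold. By edgeR, 0 members were higher and 1 was lower, where 17.1% and 9.53% of 16200 genes were. At an unadjusted p under 0.05 it was 1 higher and 3 lower, and DESeq2 called 0 higher and 1 lower. Klf1 had at least 10 counts in 2 Gata3-GFP+ pools and 10 Gata3-GFP- pools out of 20 each, and the 2 groups overlapped, with 10 and 9 pools at 0. It fell by 3.03 ± 0.85 on the log2 scale in Gata3-GFP+ HC (edgeR adjusted p = 0.00396). The count filter asked for 10 counts in 5 pools, so Klf1 entered this test through the Gata3-GFP- pools where it was high. With no filter on counts it had -3.05 ± 0.82 (edgeR adjusted p = 0.00416). Of the 10 Gata3-GFP- HC pools with 10 Klf1 counts, Hbb-bh1 also reached 10 in 5, and Hbb-y, Hba-a1 and Hbb-bt each in 4. Of the 2 such Gata3-GFP+ pools, Hba-a1 and Hbb-bh1 each reached 10 counts in 2, Hbb-bt in 1 and Hbb-y in 0.

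The globins gave no call between the HC fractions. Hba-a2 had -2.13 ± 0.88 (edgeR adjusted p = 0.0533), Hbb-bh1 -2.06 ± 0.89 (edgeR adjusted p = 0.0654) and Hba-a1 -1.72 ± 0.88 (edgeR adjusted p = 0.125). These moved with the Gata3-GFP- HC pool of 1595 CPM and the richest Gata3-GFP+ HC pool. Without the pool of highest globin CPM in each population the values were 0.063, -0.38 and 0.84. The median CPM of Hba-a1, Hba-a2, Hbb-bh1 and Hbb-bs was higher in Gata3-GFP+ HC, the reverse of their fitted changes. Hba-x (0.93 ± 0.90), Hbb-y (0.66 ± 0.79), Hbb-bt (0.44 ± 0.69) and Hbb-bs (-0.93 ± 0.79) were not called either, with edgeR adjusted p of 0.377 to 0.654. Alas2 had 1.78 ± 0.63 with an edgeR adjusted p of 0.0239, which misses the threshold.

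Other red cell genes were compared between the HC fractions by list. Of 72 genes in 6 lists, 69 were in the table and 55 were tested, and 36.4% were higher and 5.45% lower in Gata3-GFP+ HC, beside the 17.1% and 9.53% over all genes. Of 15 erythroid transcription factors and cofactors, 6 rose and 2 fell, with a median log2 fold change of 0.24 beside 0.05 over all genes. Gfi1b, a repressor needed in red cell and platelet lineages, rose by 3.04 ± 0.59 (edgeR adjusted p = 6.05e-05), from a median of 1.85 to 60.9 CPM. Gata1, the central factor of both lineages, rose by 2.75 ± 0.53 and Nfe2, which activates platelet and globin genes, by 2.01 ± 0.38. Myb, which acts in progenitors, fell by 1.88 ± 0.38 on the log2 scale and Ikzf1, a lymphoid and haematopoietic factor, fell by 1.10 ± 0.27.

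Of 13 tested genes of the red cell membrane and surface, 6 rose and 0 fell in Gata3-GFP+ HC (list median 1.83). They included Sptb, a spectrin chain (3.34 ± 0.53), Dmtn, which binds actin (3.04 ± 0.59), and Smim1, which carries the Vel blood group (2.33 ± 0.35). Dmtn reached 10 counts in 15 Gata3-GFP+ and 4 Gata3-GFP- HC pools, so it entered the test through the fraction where it was high. Of 9 other red cell genes, 6 rose (list median 1.23), with the erythropoietin receptor Epor at 2.40 ± 0.36 and the antioxidant enzyme Prdx2 at 0.97 ± 0.10. Haem synthesis had 1 gene up, Urod (0.76 ± 0.16), and 1 down, Alas1, the enzyme of other tissues (-1.09 ± 0.17), among 8 (list median 0.05). Of 9 genes of iron and haem transport, 0 were called by edgeR or DESeq2 in either direction, with 1 higher and 3 lower at an unadjusted p under 0.05, and of the other globin-family genes only Cygb was tested and rose.

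These lists moved beside markers of other cell types. All 7 megakaryocyte and platelet markers rose in Gata3-GFP+ HC, with summed CPM of 1700 to 60992 (median 9912) against 130 to 4059 (median 597). Of 6 granulocyte and mast cell markers tested, 5 fell, with summed CPM of 18.99 to 467 against 65.96 to 27911. Of 6 erythroid markers tested 4 rose, and of 5 endothelial markers 4 rose. All 5 mesenchymal markers rose as well, summing to 11.1 to 587 CPM (median 232) against 1.06 to 120.1 (median 22.2). All 5 sympathetic markers rose, from a summed median of 0.560 CPM, with Hand2 and Sox10 among those at a median of 0, to 24.2 CPM. Of 7 macrophage markers tested, 1 fell. Several genes of the red cell lists, Gata1, Gfi1b and Nfe2 among them, are also used by megakaryocytes. The part of these cell types in the results for Klf1 and the red cell lists was not tested.

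Between the EC fractions, Hbb-y and Hbb-bt were higher in Gata3-GFP+ cells. Of the 9 members, 4 were tested, and edgeR and DESeq2 each called 2 higher and 0 lower, as did an unadjusted p under 0.05. Over 15073 genes, 19.5% were higher and 16.5% lower. Hbb-y rose by 1.90 ± 0.61 (edgeR adjusted p = 0.00885). Without the pool of highest globin CPM in each population it was 1.70 (adjusted p = 0.0213), and with ERCC size factors 0.86 (adjusted p = 0.230), so both ended the call. Hbb-bt rose by 2.70 ± 0.74 (edgeR adjusted p = 0.00247), from 0 to 1.77 CPM (median 0.368) in Gata3-GFP- to 0 to 23.6 CPM (median 1.40) in Gata3-GFP+ pools. It reached 10 counts in 6 Gata3-GFP+ and 0 Gata3-GFP- pools, so it entered the test through the fraction where it was high. With no filter on counts it had 2.71 ± 0.73 (edgeR adjusted p = 0.00367). ERCC size factors gave 2.05 for Hbb-bt, with an adjusted p of 0.0180. The EC pool richest in Hbb-bt with no Hbb-y held 88 counts of the adult gene.

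Hbb-bh1 (-0.22 ± 0.84) and Alas2 (0.52 ± 0.49) were not called in EC by edgeR. Klf1 and the other members were under the count filter there, and Klf1 reached 10 counts in 1 EC pool, a Gata3-GFP+ pool with 30. The 1 erythroid marker tested, Epor, was called higher in Gata3-GFP+ EC, from a median of 0.669 to 4.33 CPM, beside the erythroid sums given above. Of the other marker lists, 4 of 5 endothelial markers rose and 1 fell. All 5 mesenchymal markers rose in Gata3-GFP+ EC, with summed CPM of 7.93 to 1227 (median 47.4) against 1.61 to 66.3 (median 12.5), where Pdgfrb and Twist1 were at a median of 0. By contrast, 0 of 7 macrophage and 0 of 5 megakaryocyte markers tested were called by edgeR or DESeq2 or had an unadjusted p under 0.05. Their part in the globin results was not tested.

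The promoters of the globins that rose in Gata3-GFP+ EC are shown, since both genes rose there. Each is the 150 bases before the RefSeq start on GRCm38.p6, minus strand, with capitals marking matches on either strand to 4 motifs. These were CACCC of the KLF type, GATAA of the GATA type, CCAAT of the CCAAT box and TATAAA of the TATA box. Hbb-y spans chr7:103853208-103853357 and Hbb-bt chr7:103813924-103814073.
Hbb-y: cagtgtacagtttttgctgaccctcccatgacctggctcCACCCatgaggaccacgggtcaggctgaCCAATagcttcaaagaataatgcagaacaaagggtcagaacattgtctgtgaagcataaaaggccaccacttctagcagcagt
Hbb-bt: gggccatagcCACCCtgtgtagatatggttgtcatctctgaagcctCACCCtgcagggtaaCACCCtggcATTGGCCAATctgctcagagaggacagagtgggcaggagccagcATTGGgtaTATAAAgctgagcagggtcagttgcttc
Hbb-y held CACCC at -111 and CCAAT at -83 from the start. Hbb-bt held CACCC at -140, -104 and -89, CCAAT at -80, -75 and -36, where the first 2 lie side by side on opposite strands, and TATAAA at -28. All 8 members in the promoter table held CACCC. Such letters are common. Of 32851 promoters, 37.4% held the KLF-type, 24.5% the CCAAT, 13.3% the GATA-type and 7.57% the TATA motif in the same window. A match is a description of letters and not a binding site.

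In EC, red cell lists moved in mixed directions. Of 43 tested genes of the 6 lists, 17 (39.5%) were higher and 6 (13.95%) lower in Gata3-GFP+ EC with edgeR, beside 19.5% and 16.5% over all genes. Of 13 transcription factors, 11 rose and 0 fell, among them Sox6, a repressor of embryonic globin genes (5.16 ± 0.35, from 0.997 to 57.2 CPM), Bcl11a, another globin repressor (2.80 ± 0.21), and Lyl1 (1.45 ± 0.15). Aqp1, the water channel (5.04 ± 0.45), and Bpgm, which makes 2,3-bisphosphoglycerate (2.45 ± 0.16), rose too. Sox6 and Aqp1 each reached 10 counts in 19 Gata3-GFP+ EC pools, but in only 2 and 3 Gata3-GFP- pools. Both thus entered the test through the fraction where they were high. Haem synthesis had 0 up and 2 down, with Alad at -1.93 ± 0.18, and iron transport 1 up (Abcb10, 0.84 ± 0.21) and 3 down, Slc25a37, Tfrc and Hebp1. Of the membrane genes, Aqp1 and Epb41 (0.64 ± 0.18) rose and Dmtn fell by 2.24 ± 0.33 on the log2 scale. With ERCC size factors 7 list genes were higher and 13 lower, the median over all genes moved from 0.10 to -0.60, and Abcb10 and Epb41 lost their calls.

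The Gata3-GFP change of Klf1 differed between HC and EC. The difference was -5.76 ± 1.28 (edgeR adjusted p = 0.000222), the only call among the 9 members, where 13.2% and 9.27% of 17851 genes were called higher and lower. Klf1 entered this fit through the HC pools. Without the pool of highest Klf1 CPM in each population, the EC pool with 30 counts among them, it was -3.81 ± 1.76 with an edgeR adjusted p of 0.0878, which ends the call. Hbb-bt had -2.32 ± 1.02 (edgeR adjusted p = 0.0711) and Hbb-y -1.28 ± 1.02 (edgeR adjusted p = 0.359). A difference between HC and EC was thus not shown for the change of either gene.

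The red cell lists were also compared between HC and EC. Of 55 list genes tested, 28 (50.9%) were higher and 8 (14.5%) lower in HC, beside 25.5% and 24.8% over all genes. With ERCC size factors these counts were 33 and 8. Gata1 (6.05 ± 0.42), Ikzf1 (4.57 ± 0.30) and Nfe2 (4.45 ± 0.32) rose, while Lmo2, Ldb1 and Klf3 fell by 1.15, 1.02 and 0.99 on the log2 scale. Gata1 reached 10 counts in 33 HC and 0 EC pools, so it entered the test through the HC pools. Of 13 membrane genes, 9 rose and 2 fell, with Smim1 at 4.98 ± 0.31 and Dmtn at -2.04 ± 0.33. Of 8 haem synthesis genes, 3 rose and 0 fell, Cpox and Alas1 among those that rose, and 3 of 9 iron genes did (Steap3, Flvcr1 and Tfrc). Of 9 other red cell genes, 7 rose, Blvrb at 3.03 ± 0.16 among them, and Bpgm and Prdx2 fell.

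Outside blood and endothelium, globin counts were near the floor. The 74 MC and SNS pools held 336 globin counts in all, and 45 of them held 0. The 12 pools that went against their label held 61 of these counts. Hbb-bh1 supplied 191 of these counts, Hbb-y 71 and Hba-x 51, whereas Hbb-bt gave 2 and Hbb-bs 0. Hbb-bt and Hbb-bs were at 0 in all 20 Gata3-GFP+ MC pools, which allows up to 0.0313 CPM over that population (3 counts, counting error only). Among MC pools, Hbb-bh1 reached 10 counts in 6 of the 20 that were Gata3-GFP+ and 2 of the 17 that were Gata3-GFP-, with maxima of 5.13 and 4.61 CPM, and Hbb-y in 1 and 0. All 13 of the MC and SNS pools with 10 beta-like counts had an embryonic share of 100%. Klf1 appeared in few pools, with 30 counts in 1 Gata3-GFP- MC pool, 13 in 1 Gata3-GFP- SNS pool and at most 20 in a Gata3-GFP+ MC pool. The first of these was among the pools that went against their label.

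Alas2 was seen in these populations too, with 544 counts over the 74 pools, beside 173 in 40 HC pools and 385 in 39 EC pools. Its medians were 2.08 and 0.693 CPM in Gata3-GFP+ and Gata3-GFP- MC, and 1.44 and 1.19 in the SNS fractions. Between the MC fractions edgeR tested Alas2 (1.02 ± 0.57) and Hbb-bh1 (0.52 ± 0.94), and between the SNS fractions Alas2 (0.08 ± 0.47). By edgeR and DESeq2, 0 were called. At an unadjusted p under 0.05, edgeR had 0 in MC and SNS and DESeq2 had 1 in MC and 0 in SNS. Of 16026 genes in MC, 2.21% were higher and 2.15% lower, and of 16143 in SNS, 2.01% and 1.85%. Without the pools that went against their label, Alas2 had 0.79 ± 0.60 in MC and 0.14 ± 0.51 in SNS, Hbb-bh1 had 0.47 ± 0.94 in MC, and 0 were called. Of the 72 red cell list genes, 2 rose in MC (Hebp1 and Smim1) and 1 fell (Epb41), and in SNS Sox6 rose and Klf3 fell. Smim1 and Klf3 lost their calls with ERCC size factors, which moved the median over all genes from -0.0039 to 0.35 in SNS. All 5 kept them without the pools that went against their label, where 3 list genes were higher and 1 lower in each of MC and SNS.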

How the data were processed

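Pools of 20 sorted cells were sequenced by Smart-seq2 with ERCC spike-ins as single-end reads. The authors deposited raw counts per Ensembl gene from HTSeq. The methods name STAR and Ensembl 81, whereas the submitters' processing notes name GSNAP, HTSeq 0.5.3p3 and mm10. Multi-mapping reads appear as 0 in every pool, and 4.62% to 19.8% of reads were ambiguous, so shared globin reads may be lost. Strand and overlap settings were not stated.

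Kept pools had more than 500000 counts (genes plus ERCC RNAs), more than 20% of reads on genes, and less than 20% on either mitochondrial genes or ERCC RNAs. This left out 7 of 160 pools. Median counts on genes were 2801409 to 4573354 per population. Groups came from the sample titles and sort labels. Column names gave only the population.

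Counts were fitted with edgeR 4.0.16 (TMM, robust quasi-likelihood) in R 4.3.3 with at least 10 counts in at least 5 pools, and p-values were Benjamini-Hochberg adjusted over all genes tested. A call needed an adjusted p below 0.01 with a log2 fold change of over 0.1 in size. The test was checked on simulated counts, drawn independently for each pool with the same dispersion for every gene. That check did not cover pools that share replicates or genes whose counts come mostly from a few pools. CPM used TMM over all populations. Embryonic shares had no test. No counts carried molecular identifiers, so floors of 3 counts cover counting error only.

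The 9 members, 6 red cell lists of 72 genes and marker lists were chosen with earlier results of these data known. In each list up to 3 called genes per direction with the largest change and 10 counts in 75% of pools of the higher population were named. Some of the genes so chosen are not reported here. The 10 genes nearest in pattern to summed globin CPM were also named. Alternatives were DESeq2 1.42.0 size factors and Wald test, ERCC size factors, TMM without globins, other filters, all pools, summed near-identical genes and p under 0.05. Leaving out the richest pool or the 12 MC and SNS pools with more markers of the other type, and shares per unique window, were chosen after seeing the data.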

Additional observations from a re-analysis of the deposited data

Results flagged for a closer look

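The Gata3-GFP change was larger or smaller in HC than in EC, by the test of the difference itself (edgeR's quasi-likelihood test with an interaction term, called at adjusted p under 0.01), for 1 of 9 members and 15 of 23 named list genes. The list genes were chosen for large called changes in HC or EC, so their count says nothing about red cell genes as a group, and over all genes 13.2% were called higher and 9.27% lower. Values are differences of log2 fold changes, HC minus EC. Klf1 had -5.76, with -3.03 in HC, and was under the count filter in EC. Without the pool of highest Klf1 CPM in each population the Klf1 value was -3.81 and missed the threshold, as given above. Among the transcription factors, the difference was 3.28 for Gata1, -3.17 for Ikzf1, -3.77 for Myb, -1.55 for Bcl11a and -1.54 for Lyl1. Ikzf1 fell in HC and rose in EC, and Myb fell in HC with an uncalled 1.81 in EC. Among haem and iron genes it was 2.06 for Alad, -1.66 for Alas1, 0.91 for Urod and -1.40 for Abcb10. Among membrane genes it was 5.21 for Dmtn, 3.66 for Sptb, 2.24 for Smim1 and -3.95 for Aqp1. Dmtn rose in HC and fell in EC. Among other red cell genes it was 1.01 for Prdx2 and -1.58 for Bpgm. Gata1 and Sptb, which are among the 15, were under the count filter in EC like Klf1. They entered this fit through the HC pools, and no change within EC was fitted for them. All values rest on TMM scaling; with ERCC size factors the median difference over all genes moved from 0.08 to 0.75.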

How the results depend on the processing

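Of 34 member changes, 12 were called, and 357 values were recomputed under alternatives. Of the called changes, 0 reversed, and 5 values missed the threshold: Hbb-y in EC (2 alternatives), Hbb-bt in EC, Alas2 in HC against EC and Klf1 for the difference, as given above. At adjusted p under 0.05, 1 member (Alas2) was called higher in Gata3-GFP+ HC, and 1514 genes were called in MC and 1331 in SNS, against 698 and 624. ERCC size factors gave 381 genes in MC and 1013 in SNS, 0 members higher in Gata3-GFP+ EC and 0 lower in HC against EC. They also changed the share of called genes that were higher from 54.1% to 14.3% in EC, from 50.7% to 72.4% in MC, from 52.1% to 83.3% in SNS, from 50.7% to 74.7% for HC against EC and from 58.8% to 90.99% for the difference. Requiring 10 counts in 20 pools, which tests fewer members, left 3 members higher and 0 lower in HC against EC, 1 higher in EC, 0 lower in HC and 0 lower for the difference. Without the pool of highest globin CPM in each population, 1 member was higher in EC. Without the 12 pools that went against their label, an alternative chosen after seeing the data, 1586 genes were called in MC and 1631 in SNS, with 0 members in either.

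Reversed values were all of uncalled changes. With DESeq2's Wald test the log2 fold changes in HC were 0.37 for Hbb-bs, 0.35 for Hba-a2 and 1.001 for Hba-a1, the EC value was 0.74 for Hbb-bh1, and the differences were 0.093 for Hbb-bh1, 0.66 for Hba-a2 and 1.85 for Hba-a1. Without the pool of highest globin CPM, Hba-a2 had 0.063 and Hba-a1 0.84 in HC, and Hba-x -0.97 for the difference. Without the pool of highest CPM of the gene, Hbb-bs had 0.065 and Hba-a1 0.52 in HC, and Hba-a2 0.62 and Hba-a1 1.47 for the difference. Alas2 in EC had -0.073 with ERCC size factors. The cause was not tested. Median embryonic shares moved by less than 1 SD between pools in all alternatives. That SD was wide, at 32.2 points for beta-like shares in Gata3-GFP+ HC. Per unique window, the beta-like median there fell from 64.7% to 47.002%, and the pools above 50% from 11 to 8 of 18. The alpha-like median fell from 9.1% to 3.83% in Gata3-GFP+ HC and from 15.7% to 6.76% in Gata3-GFP- HC. No paired analysis was possible because the column names carry the population and no replicate number, so the planned replicate block was not run.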

Other observations

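Of 14194 non-member genes, Mlx, Sord, Rab29, Gm8399, Tuba1c, Pfn1, Emc6, Arpc2, Ciao2a and Gm6652 had the CPM pattern nearest to the summed globins over the 20 Gata3-GFP+ and 20 Gata3-GFP- HC pools. The smaller of their 2 Spearman rho ran from 0.538 to 0.620, and each gene shares its pools' depth with the globin sum. Among list genes, Lmo2 ranked 53, Hemgn 64 and Gata1 317. The theta globin Hbq1b, chosen after its values were seen, reached 10 counts in 2 Gata3-GFP- HC pools with a maximum of 14.9 CPM.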
